A study of Mus musculus with 8 samples.

Results

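A set of genes known for the secretion of aqueous humor, 7 of the 22873 genes measured, were followed across the nuclei of the mouse iris and ciliary body. They were taken by name, with no measured value in the rule. Slc4a4 codes for the electrogenic sodium bicarbonate cotransporter and Slc4a2 for an anion exchanger that trades chloride for bicarbonate. Slc12a2 codes for the sodium-potassium-chloride cotransporter NKCC1, Atp1b1 for a beta subunit of the Na,K-ATPase, Aqp1 and Aqp4 for water channels, and Car2 for cytosolic carbonic anhydrase II. All 7 were measured in each of 10 cell types and in 3 conditions of the pupil.

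Aqueous humor is the clear fluid that fills the front of the eye, feeds the lens and cornea and sets the intraocular pressure. It is secreted by the ciliary epithelium, in which a pigmented layer faces the stroma and a non-pigmented layer faces the posterior chamber, with gap junctions between them. Sodium, chloride and bicarbonate are taken up on the stromal side by cotransporters and paired exchangers, carbonic anhydrase supplies the bicarbonate and protons that the exchangers use, the Na,K-ATPase drives sodium out on the aqueous side, and water follows through water channels. The same gene products move salt and water in many other epithelia, in endothelium and in muscle.

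Nuclei were prepared from wild-type female albino mice aged 6 to 8 weeks, and their RNA was counted by droplet single-nucleus sequencing in 8 libraries. The 3 untreated libraries came from irises that received no drops, the 3 constricted libraries from irises given 5% pilocarpine (a muscarinic agonist) in the light, and the 2 dilated libraries from irises given 5% phenylephrine (an alpha-adrenergic agonist) with 1% cyclopentolate (a muscarinic antagonist) in the dark. Drops were given hourly for 6 hours, with harvest 30 minutes after the last dose, so drug and lighting cannot be told apart. Each library pooled 5 or 6 irises with the attached ciliary body and is 1 replicate. P-values therefore measure the spread between pools.

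The files hold 34357 nuclei and 109565284 UMIs (unique molecular identifiers, 1 per captured RNA molecule), with 5189437 to 25136427 UMIs per library and a median of 2775 to 4697.5 UMIs per nucleus in a library. The authors' annotation was used for the cell types. It holds 1295 nuclei of the ciliary body epithelium (CBE), 1291 of the ciliary body outside that epithelium (CB), and 31771 nuclei of 8 iris types, namely iris pigment epithelium (iris PE), dilator muscle, sphincter 1, sphincter 2, stroma 1, stroma 2, endothelial cells and leukocytes. The CB made up 1.36 to 7.35% of a library's nuclei and the CBE 1.5 to 7.59%. Levels are given as CPM, the UMIs of a gene per 1000000 UMIs summed over the nuclei of 1 cell type in 1 library.

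The markers of the ciliary labels were at the levels the labels call for in the untreated libraries, though the study had picked such markers from these libraries. In the CBE, Sned1 stood at 4748 CPM and Slc13a4 at 459 CPM, and Zic1 stood at 705 CPM beside 764 CPM in the iris PE. In the CB, Rgs6 stood at 1750 CPM and Cacng4 at 987 CPM. Although the study's name for the CB cluster is non-epithelial, its nuclei held Pax6 at 1998 CPM and Otx2 at 433 CPM. These were the highest means of the 10 types. The melanin pathway genes Dct and Tyr stood at 4835 and 623 CPM there. Tyr was higher in stroma 1 (2477 CPM), the iris PE (1959 CPM) and the dilator muscle (1214 CPM). Zic1 and Otx1, at 14.6 and 62.9 CPM in the CB, were below the iris PE (764 and 147 CPM) and the CBE (705 and 187 CPM). The smooth muscle genes Myh11 and Acta2 stood at 50.1 and 52.1 CPM. The cluster is therefore called by its label only.

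In the untreated libraries, 2 of the 7 genes were higher in the CB or CBE than in every iris type. Slc4a4 was highest in the CB and Aqp4 in the CBE, in 8 of 8 libraries each. The other 5 had their highest mean in an iris type, which was the dilator muscle for Slc4a2, stroma 1 for Slc12a2, sphincter 2 for Atp1b1, endothelial cells for Aqp1 and sphincter 1 for Car2. No p-value is given between cell types, because the clusters were made from the same counts.

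**Figure D1:**
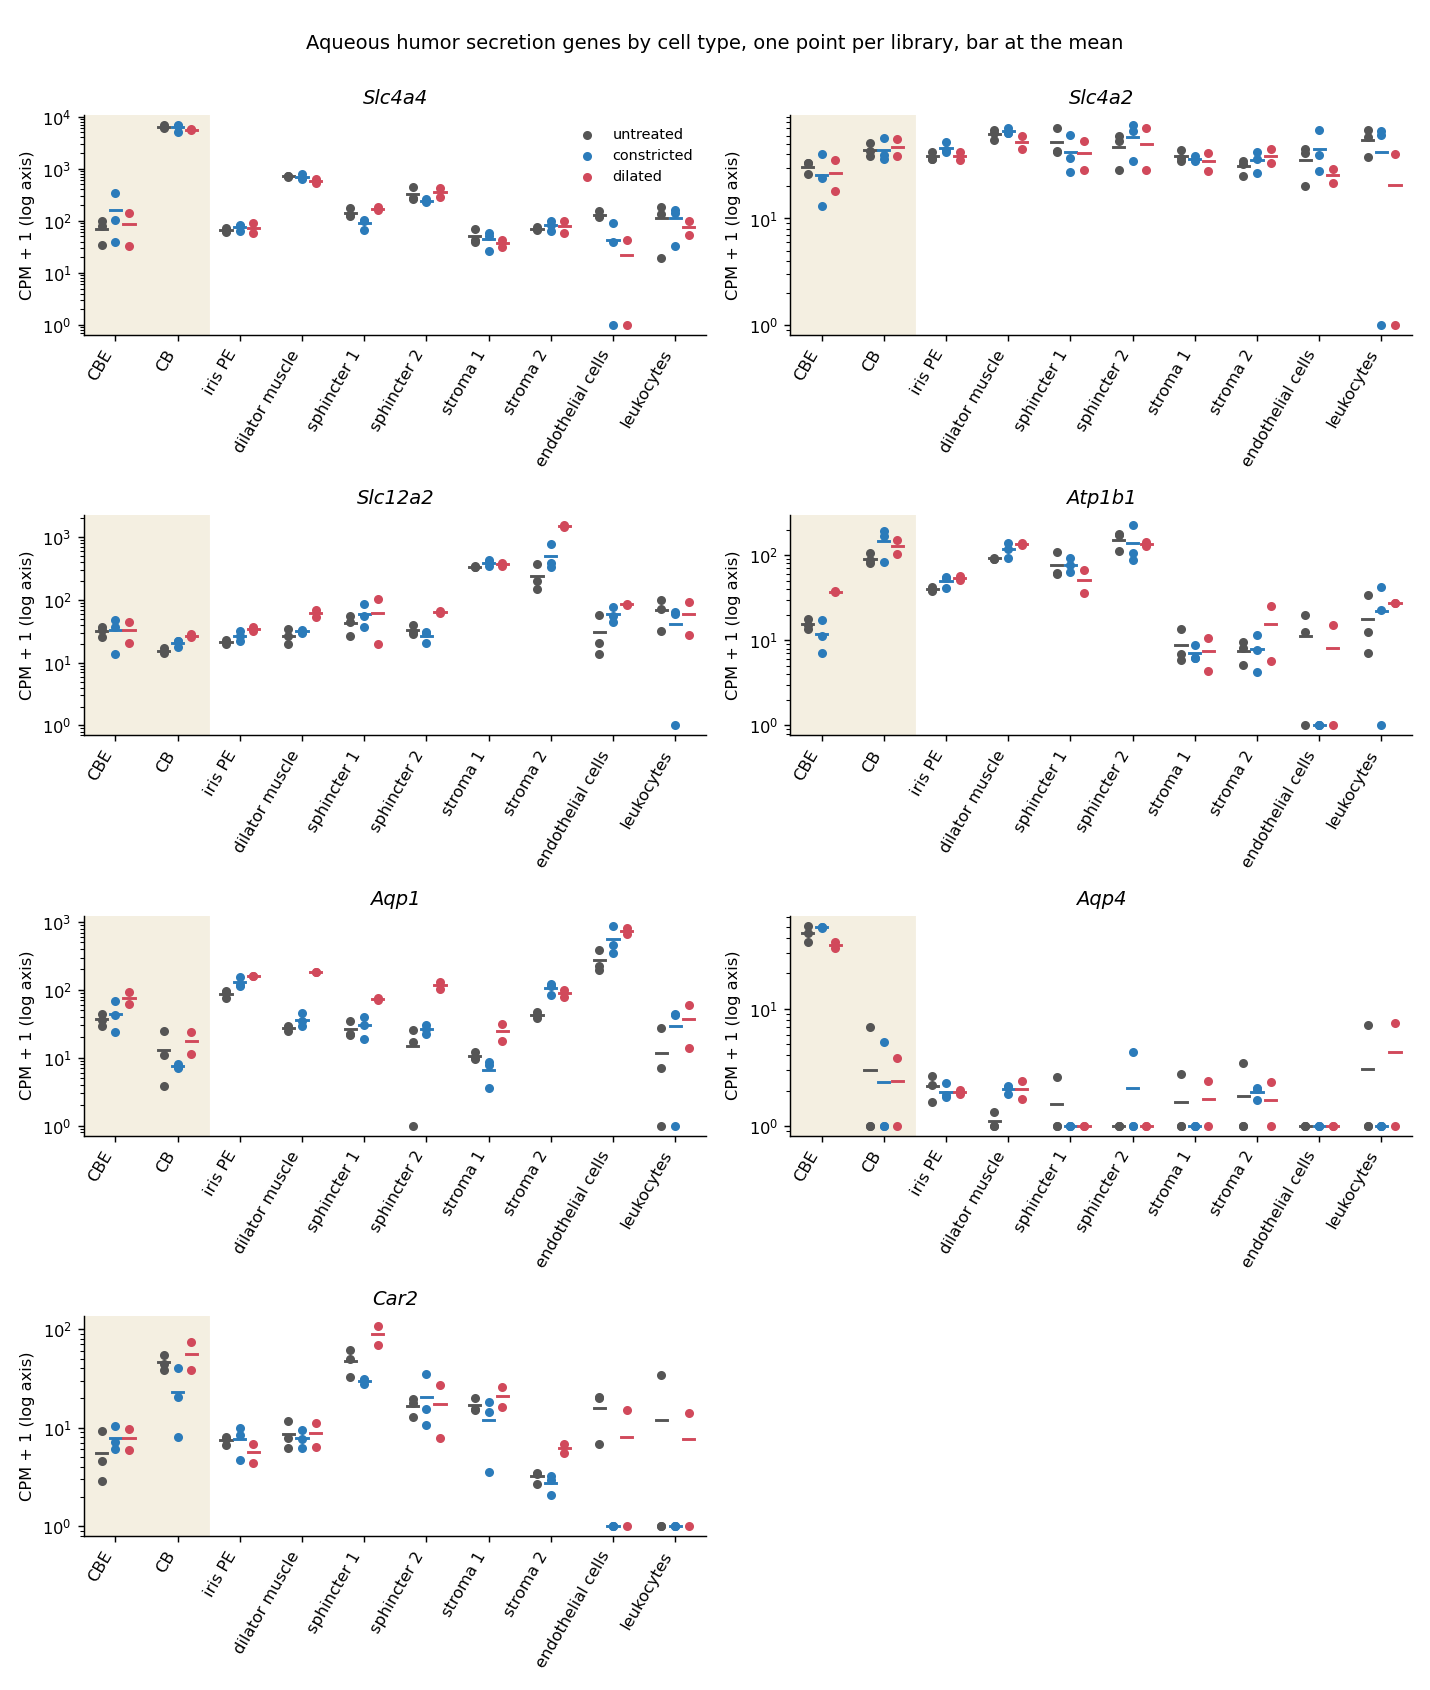
Level of each of the 7 genes in each of the 10 cell types, in CPM + 1 on a log axis, with 1 point per library (3 untreated, 3 constricted and 2 dilated), the mean of each condition as a bar and the ciliary types shaded. In untreated irises Slc4a4 in the CB (mean 6338 CPM) and Aqp4 in the CBE (mean 43.0 CPM) lie above every iris type, and the other 5 genes have their highest mean in an iris type.

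Slc4a4 lies on chromosome 5 (mm10 chr5:88886818-89239653, plus strand, ENSMUSG00000060961.14), and at 352.836 kb it is the longest of the 7 genes. Its level in the CB was 6173, 6045 and 6795 CPM in the 3 untreated libraries, 5058, 6923 and 6639 CPM in the constricted libraries, and 5688 and 5579 CPM in the dilated libraries. The dilator muscle came next with 725.6, 730.5 and 685.3 CPM in the untreated libraries, followed by sphincter 2 at 324 ± 100 CPM (SD, n = 3) and sphincter 1 at 139.9 ± 28.0 CPM. The ranges of the untreated libraries did not overlap between any of these 4 types, and the CB mean was 8.88 times the dilator mean. Below sphincter 1 the ranges of neighbours in the order overlapped, and the CBE held 70.0 ± 32.7 CPM, 0.0981 times the dilator level.

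A Slc4a4 UMI was found in 346 of 346 untreated CB nuclei (100%, exact 95% interval 98.9 to 100%), with a mean of 20.8 UMIs per nucleus. When every nucleus was thinned to 1000 UMIs, the share was still 98.1% in the CB, against 44.6% in the dilator muscle. The lowest share of any type was 10.8% in stroma 1, at a median of 2691 UMIs per nucleus. The CBE share was 11.3% (8.24 to 14.9%), at a median of 3223 UMIs, and whether it is background was not tested. Over all 8 libraries the level ran from 32.0 to 335.8 CPM in the CBE and from 25.0 to 70.0 CPM in stroma 1. Of all untreated Slc4a4 UMIs, 36.3% came from the CB and CBE. These intervals cover counting error only.

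Slc4a2, on the same chromosome (mm10 chr5:24423837-24440950, plus strand, ENSMUSG00000028962.14), was the most even of the 7 genes. Its mean ran from 29.7 ± 4.1 CPM in the CBE through 43.3 ± 6.7 CPM in the CB to 61.2 ± 7.0 CPM in the dilator muscle, and every pair of neighbours in the order overlapped. A UMI was found in 7.38% (endothelial cells) to 17.9% (sphincter 2) of untreated nuclei. The gene shares 2511 bp with Fastk on the opposite strand, and the reads of overlapping genes may have been split between them.

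Car2 (mm10 chr3:14886273-14900770, plus strand, ENSMUSG00000027562.12) was at 43.3, 37.6 and 54.0 CPM in the CB and at 48.4, 31.9 and 59.6 CPM in sphincter 1 of the untreated libraries. These ranges overlapped, and the CB was above every iris type in 3 of 8 libraries. The next type in the order was stroma 1 at 15.9 ± 2.8 CPM, 2.84-fold below the CB and without overlap. The CBE held 4.59 ± 3.3 CPM, with a UMI in 1.34% of its nuclei against 12.4% (9.14 to 16.4%) in the CB and 0.532% in stroma 2, one of the lowest shares.

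Slc12a2 (mm10 chr18:57878678-57946821, plus strand, ENSMUSG00000024597.11) had its highest levels in the stromal types. It stood at 343, 337 and 328 CPM in stroma 1 and at 371, 202 and 146 CPM in stroma 2 of the untreated libraries, which overlapped. Leukocytes followed at 67.4 ± 34.4 CPM, 3.56-fold below stroma 2. The CBE stood at 30.7 ± 5.5 CPM, and its range overlapped those of its neighbours in the order, sphincter 2 and the endothelial cells. The CB was lowest at 14.6 ± 1.2 CPM, with no overlap with the iris PE above it. The 4.05% of CB nuclei with a UMI was the lowest share of any type. The CB and CBE supplied 1.62% of the untreated Slc12a2 UMIs.

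Atp1b1 (mm10 chr1:164437109-164458355, minus strand, ENSMUSG00000026576.12) was measured at 110, 175 and 170.5 CPM in sphincter 2 of the untreated libraries, 1.68-fold above the dilator muscle at 91.6, 90.1 and 90.0 CPM. The CB, at 104, 79.2 and 87.8 CPM, overlapped both the dilator muscle and sphincter 1. The CBE held 14.6 ± 2.3 CPM. A UMI was found in 23.4% (19.1 to 28.2%) of CB nuclei, 4.83% of CBE nuclei and, at the lowest, 1.32% of stroma 2 nuclei. The gene shares 617 bp with Nme7 on the opposite strand.

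Aqp1 (mm10 chr6:55336432-55348555, plus strand, ENSMUSG00000004655.5) was highest in endothelial cells, a known site of this water channel, at 388, 228 and 195.5 CPM in the untreated libraries. The iris PE followed at 74.4, 90.9 and 94.5 CPM, and stroma 2 at 37.5, 41.6 and 45.9 CPM, each below the type before it without overlap. The CBE at 35.8 ± 7.5 CPM overlapped stroma 2 and the dilator muscle, and the CB stood at 12.3 ± 10.6 CPM. An Aqp1 UMI was found in 35.6% of endothelial nuclei, 22.7% of iris PE nuclei, 11.5% (8.47 to 15.2%) of CBE nuclei and 3.76% of CB nuclei, with the lowest share, 2.63%, in stroma 1.

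Aqp4 (mm10 chr18:15389496-15410982, minus strand, ENSMUSG00000024411.10) was highest in the CBE. Its level there was 35.6, 43.5 and 49.9 CPM in the untreated libraries, 48.7, 48.1 and 48.8 CPM in the constricted libraries, and 36.0 and 32.0 CPM in the dilated libraries. Pooled over the untreated libraries, the CBE held 57 Aqp4 UMIs, or 44.2 CPM (33.4 to 57.2, exact Poisson 95% interval), and the 8 iris types together held 19 UMIs, or 0.452 CPM (0.272 to 0.706). The ratio of these pooled levels was 97.6 (57.2 to 174), and the ratio to the CB, with 3 UMIs, was 16.9 (5.50 to 84.3). An Aqp4 UMI was found in 48 of 373 CBE nuclei (12.9%, 9.64 to 16.7%), in 0.323% of iris PE nuclei and in 0 of 352 sphincter 2 nuclei, which allows a share of nuclei with a UMI of up to 0.852% (3 counts of the total). The CB and CBE supplied 75.9% of all untreated Aqp4 UMIs.

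**Figure D2:**
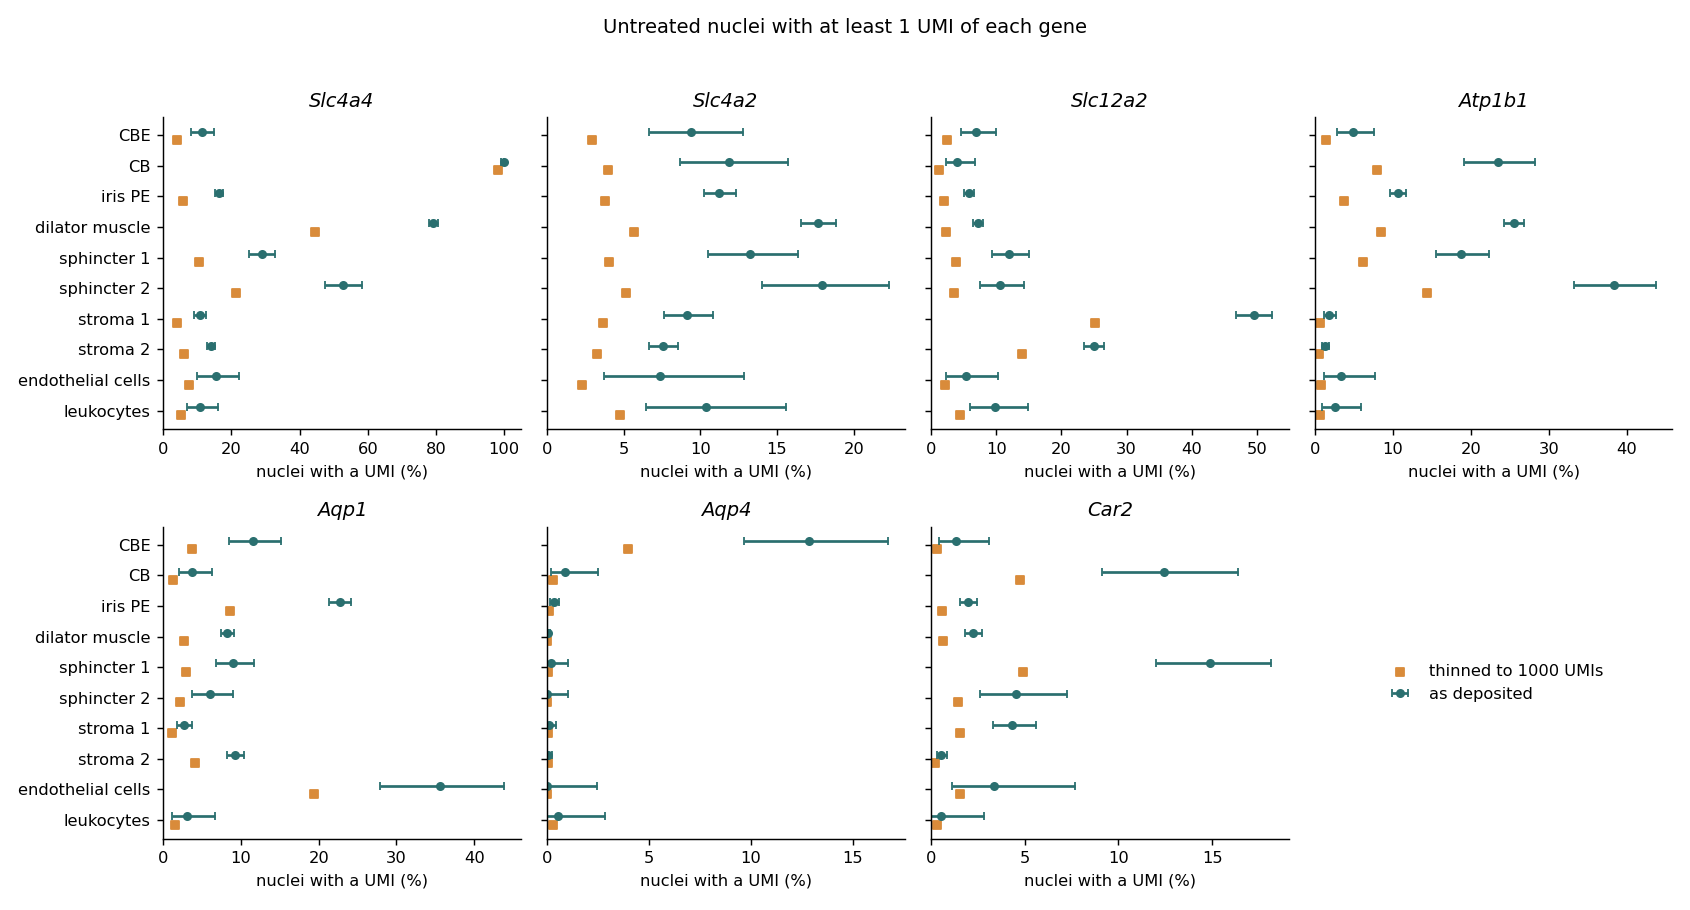
Share of untreated nuclei with at least 1 UMI of each gene, in percent, by cell type, as deposited (circles, with exact 95% intervals for counting error as bars) and thinned to 1000 UMIs per nucleus (squares). As deposited, Slc4a4 reached 100% of CB nuclei and 79.2% of dilator nuclei, and Aqp4 12.9% of CBE nuclei against 0.867% of CB nuclei.

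To set levels against each other between genes, CPM per kb of gene span was used, because intronic reads were counted. The counts come from 3′ chemistry, so a level need not scale with exon length, and the order between genes depends on the scale. On that scale the CB order was Slc4a4 at 18.0, Atp1b1 at 4.25, Car2 at 3.1, Slc4a2 at 2.53, Aqp1 at 1.01, Slc12a2 at 0.214 and Aqp4 at 0.0921 CPM per kb. In the CBE it was Aqp1 at 2.95, Aqp4 at 2.00, Slc4a2 at 1.74, Atp1b1 at 0.686, Slc12a2 at 0.450, Car2 at 0.317 and Slc4a4 at 0.198 CPM per kb. Per kb of exons the CB order was the same, while in the CBE Aqp1 at 13.6 and Aqp4 at 6.90 were followed by Slc4a4 at 6.47, Atp1b1 at 4.73, Slc4a2 at 3.57, Slc12a2 at 2.81 and Car2 at 1.89 CPM per kb. On both scales per length the CB led with the bicarbonate cotransporter, the pump subunit and the carbonic anhydrase, and the CBE with both water channels. In CPM without a length the CB led with the same genes. The CBE then held Slc4a4 highest at 70.0 CPM, followed by Aqp4 at 43.0 and Aqp1 at 35.8 CPM. Per untreated nucleus, a mean of 1.56 of the 7 genes was detected in the CB and 0.582 in the CBE, where 54.7% of nuclei held none of them, and the dilator muscle held 1.40.

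The genes whose levels over the 10 cell types were most like each member's were compared by Pearson's r of the log2 levels, as a description over 10 types that share their libraries. For Slc4a4 the nearest reported was Foxd1 (r = 0.96), and for Aqp4 they were Gpx3 and Gm31432 (0.95 each). For Slc12a2 they were Rftn2 and Zbtb38 (0.96 each), for Atp1b1 Prima1 (0.95) and Unc119 (0.94), and for Aqp1 Cx3cl1 (0.93) and Tjp1 (0.92). Slc4a2 (Rap1gap2 and Gm38399, 0.86 each) and Car2 (Thsd4, 0.87, and Cdyl, 0.85) had less similar partners. Between the 7 genes themselves r ran from -0.68 for Slc12a2 and Atp1b1 to 0.67 for Slc4a4 and Atp1b1.

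Other genes of the secretory machinery came from a list of 120 transporters, channels, enzymes and receptors in 11 roles, of which 110 were measured. At 20 CPM or more in the CB or CBE stood 45 of them, and of these 12 were highest in the CBE, 4 in the CB and 29 in an iris type. The share highest in the CB or CBE was 35.6%, beside 21.0% of all genes at that level. The list includes the 7 members and was chosen with earlier results of these data known. The genes named next were picked by rule from those at that level. In each role these were the 2 non-members with the largest ratio of the CB or CBE to the highest iris type. The ratio is from these same untreated libraries, so it describes the picked genes and is no independent support. Among the pump subunits, the CBE held Atp1b3 at 644 CPM, 1.78 times the iris PE and highest there in 8 of 8 libraries. Among the bicarbonate transporters, Slc26a4 (pendrin) stood at 306 ± 167 CPM in the CBE, 11.7 times the dilator muscle and highest there in 6 of 8 libraries, and Slc4a5 stood at 1168 CPM in the CB, 1.94 times the iris PE.

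For chloride, the bestrophin Best2 was at 338 CPM in the CBE, 4.10 times the iris PE, and the calcium-activated channel Ano1 at 127 CPM in the CB, 5.06 times stroma 1. The WNK kinase Wnk4 was at 64.8 CPM in the CBE, 4.85 times the iris PE. The taurine transporter Slc6a6 reached 3229 CPM in the CBE, 3.74 times endothelial cells, and the adenosine receptor Adora1 reached 62.3 CPM there, 43.3 times the dilator muscle. All 5 were above every iris type in 8 of 8 libraries, which their choice by that ratio favored. Other genes given by the same rule were less set apart. Kcnq1, Slc16a1, Slc9a5 and Wnk3 stood at 1.20, 1.16, 1.12 and 1.01 times the highest iris type, and Gja1, Vipr2, Car14 and Car11 at 0.994, 0.848, 0.834 and 0.783 times. Kcnj13, an inward rectifier, was at 110 CPM in the CBE and 1315 CPM in stroma 1.

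**Figure D3:**
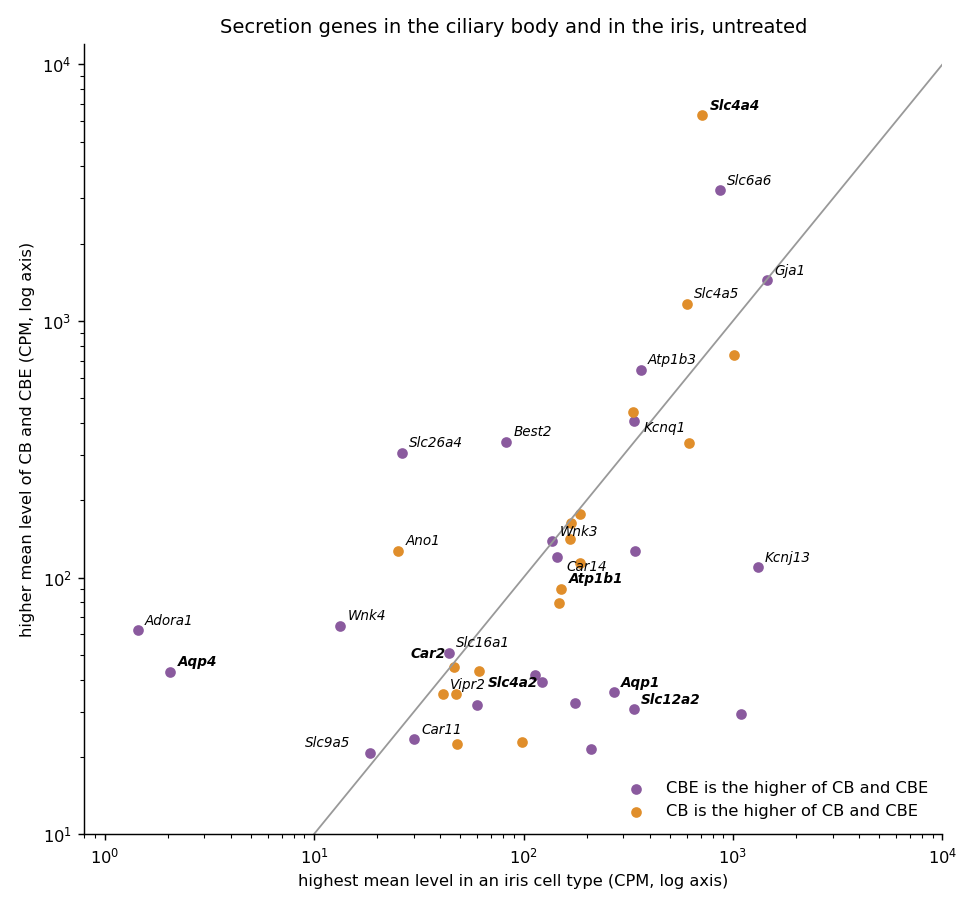
Higher of the mean untreated CB and CBE levels (y axis) against the highest mean level in an iris cell type (x axis), both in CPM on log axes, for the 7 genes (bold) and 35 others of the list at 20 CPM or more in the CB or CBE, without the genes not reported here, colored by the higher ciliary type, with equal levels on the line. Slc4a4 (8.88 times the highest iris type) and Aqp4 (20.8 times) lie above the line, and the other 5 members lie below it. The Aqp4 ratio is to leukocytes, at 2.06 CPM from 1 UMI.

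The effect of the treatments was tested in each cell type with edgeR on summed counts, and a gene was called at an absolute log2 fold change above 0.6 with an adjusted p under 0.05, adjusted over all genes tested in that cell type. Of the 70 combinations of gene and cell type, 44 passed the filter on low counts in each contrast. Aqp1 was not tested in the CB, stroma 1 and leukocytes, and Aqp4 was tested in the CBE alone. The 3 contrasts share libraries, so they are not independent.

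In the ciliary nuclei no member was called on dilation. In the CB 0 of 4 tests passed, with 0 at an unadjusted p under 0.05 (393 of 7522 over all genes) and 0.0665% of all genes called. In the CBE 0 of 6 passed, with 2 at an unadjusted p under 0.05 (353 of 8166 over all genes) and 0.0122% of all genes called. DESeq2 called none in either type. Slc4a4 in the CB had a log2 fold change of -0.14 ± 0.22 (SE, adjusted p = 1.00, edgeR), Car2 of 0.48 ± 0.37 and Atp1b1 of 0.45 ± 0.31, and Aqp4 in the CBE of -0.30 ± 0.30. Aqp1 in the CBE was at 28.5, 43.5 and 35.4 CPM untreated and 91.2 and 61.6 CPM dilated, without overlap, but its log2 fold change of 1.15 ± 0.32 did not pass (adjusted p = 0.485, edgeR). Atp1b1 in the CBE was at 14.2, 17.02 and 12.5 CPM untreated, 16.2, 10.1 and 6.11 CPM constricted, and 35.5 and 37.0 CPM dilated. Its dilated libraries stood above the other 6, and its log2 fold change of 1.31 ± 0.42 against untreated did not pass (adjusted p = 0.666, edgeR).

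Over all 10 cell types, dilation against no treatment gave 8 calls in the 44 tests. In the same 10 types 1.87% of all genes tested were called higher and 3.34% in either direction. All 8 calls were higher and in iris types. They were Aqp1 in 5 types, Slc12a2 in 2 and Atp1b1 in 1. Slc4a4, Slc4a2, Aqp4 and Car2 had none. Constriction against no treatment gave 0 calls by edgeR, beside 0.0118% of all genes called. At an unadjusted p under 0.05 were 8 of the 44 tests, beside 4468 of 85092 over all genes. DESeq2 called 1, Aqp1 in stroma 2. Dilation against constriction gave 4 calls, with 2.65% of all genes called.

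**Figure D4:**
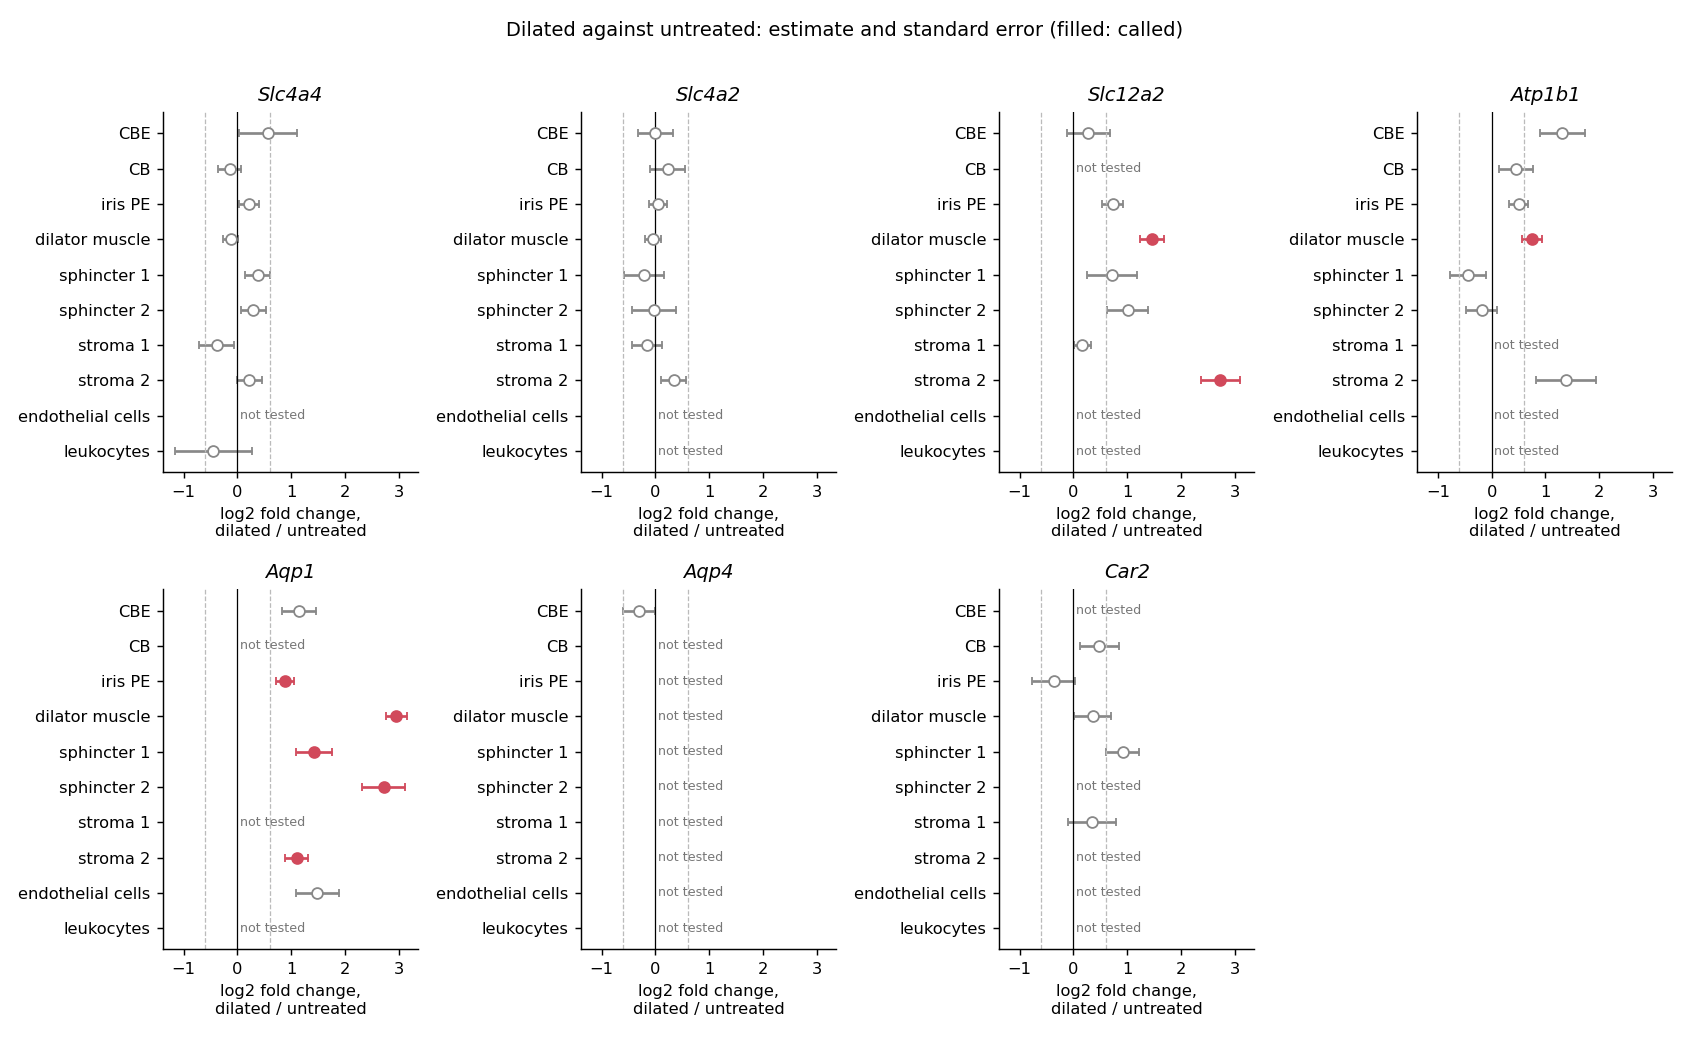
Log2 fold change of dilated against untreated irises for each of the 7 genes in each cell type that was tested, with the standard error as a bar (edgeR, 3 untreated and 2 dilated libraries), called tests filled and dashed lines at a log2 fold change of 0.6 either way. The 8 called tests are Aqp1 in 5 iris types, Slc12a2 in stroma 2 and the dilator muscle, and Atp1b1 in the dilator muscle.

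Aqp1 had its largest log2 fold changes in the dilator muscle and sphincter 2. In the dilator muscle it was at 27.4, 24.1 and 28.6 CPM untreated, 33.5, 28.4 and 44.8 CPM constricted, and 181 and 183 CPM dilated. Both dilated libraries lay above the other 6, which overlapped one another. The log2 fold change was 2.96 ± 0.19 against untreated (adjusted p = 2.5e-06, edgeR, 13.3% of genes in the dilator called in either direction and 7.2% higher) and 2.52 ± 0.19 against constricted (adjusted p = 9.5e-06, 10.5% called). The share of dilator nuclei with an Aqp1 UMI went from 8.19% (7.40 to 9.05%) untreated to 40.8% (39.3 to 42.4%) dilated, or from 2.71% to 15.3% at 1000 UMIs per nucleus.

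In sphincter 2 Aqp1 was at 0, 25.0 and 16.3 CPM untreated, 29.2, 21.7 and 25.3 CPM constricted, and 130 and 102 CPM dilated. The dilated libraries again stood apart, with a log2 fold change of 2.73 ± 0.40 against untreated (adjusted p = 5.8e-05, edgeR, 2.87% of genes called) and 2.17 ± 0.42 against constricted (adjusted p = 0.00201, edgeR, 2.45% called). In these sphincter 2 sums the 4 sphincter 1 markers stood at 2382 to 3223 CPM untreated and 1710 to 1989 CPM dilated, without overlap. The 4 dilator markers stood at 2987 to 3606 CPM untreated, 3883 to 4612 CPM constricted and 3710 to 3926 CPM dilated. Only the treated ranges overlapped. In untreated sphincter 2 the first sum was mostly Syt1 (2112 CPM) and the second Myh11 (2801 CPM, beside 1931 CPM in the dilator muscle). Neither sum is therefore particular to the type named, and their part in the result was not tested. In sphincter 1 Aqp1 went from 21.5, 20.7 and 33.4 CPM untreated to 76.4 and 69.2 CPM dilated, with a log2 fold change of 1.43 ± 0.33 (adjusted p = 0.0225, edgeR, 1.95% called). That call was lost without either dilated library, without untreated replicate 2 or 3 (log2 fold change 1.30 to 1.83) and without the nuclei called doublets (1.30). In the same sphincter 1 sums the 4 iris PE markers stood at 1290 to 1786 CPM untreated and 2324 to 2433 CPM dilated. Pax6 made up most of the untreated sum (1258 CPM), and it stood at 1691 CPM in the iris PE and 1998 CPM in the CB. The sum is therefore not particular to the iris PE, and its part in the result was not tested.

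In the iris PE, where Aqp1 is high without treatment, it was at 74.4, 90.9 and 94.5 CPM untreated, 114, 119 and 152 CPM constricted, and 159 and 157 CPM dilated. Its log2 fold change on dilation was 0.89 ± 0.17 (adjusted p = 0.0367, edgeR, 0.595% of genes called), and that call was lost in 6 of the 8 fits that leave out a library, those without each untreated and each dilated library and without constricted replicate 2, at log2 fold changes of 0.80 to 0.97. In stroma 2 it was at 37.5, 41.6 and 45.9 CPM untreated, 83.5, 115 and 121 CPM constricted, and 101 and 76.5 CPM dilated, so that both treated groups lay above the untreated libraries and overlapped each other.

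The stroma 2 log2 fold change was 1.11 ± 0.21 on dilation (adjusted p = 0.0234, edgeR, 1.73% of genes called), lost without any 1 of the untreated libraries or dilated replicate 1 (0.94 to 1.19). On constriction it was 1.33 ± 0.20, which narrowly missed (adjusted p = 0.0546, edgeR). Aqp1 is highest in endothelial cells, and the 4 endothelial markers (Pecam1, Cldn5, Erg and Flt1, none of them at 0) summed in stroma 2 to 194 to 255 CPM untreated, 152 to 324 CPM constricted and 630 to 811 CPM dilated, against 5998 to 7849 CPM in the endothelial nuclei. Their part in the dilated stroma 2 result was not tested. In the dilator muscle the same sum was 14.8 to 32.4 CPM untreated and 20.0 to 31.0 CPM dilated, and in sphincter 2 it was 12.5 to 45.8 CPM and 3.41 to 29.6 CPM, with overlap in both types.

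Whether the Aqp1 response differed between cell types was tested with an interaction term, which passed in 2.06% of all tests over the 45 pairs of types. The log2 response of the dilator muscle exceeded that of the CBE by 1.75 ± 0.32, of the CB by 2.27 ± 0.53, and of the iris PE by 2.07 ± 0.13 (adjusted p = 2.2e-05, 0.00343 and 2.7e-10, edgeR). With a library left out these differences ran from 1.49 to 2.26, from 1.08 to 3.42 and from 1.97 to 2.14. The CB held 16 Aqp1 UMIs untreated and 45 dilated. The difference between sphincter 2 and the CBE was 1.70 ± 0.48 and did not pass (adjusted p = 0.0676, edgeR). Nor did the response differ from that of the CBE in the other types with an Aqp1 call. Minus the CBE, it was -0.32 ± 0.28 in the iris PE, -0.015 ± 0.32 in stroma 2 and 0.39 ± 0.42 in sphincter 1. A lack of the response in the CBE is therefore not shown. Endothelial cells, with the highest untreated level, had a log2 fold change of 1.49 ± 0.40 (adjusted p = 0.361, edgeR), from 388, 228 and 195.5 CPM to 816 and 659 CPM.

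**Figure D5:**
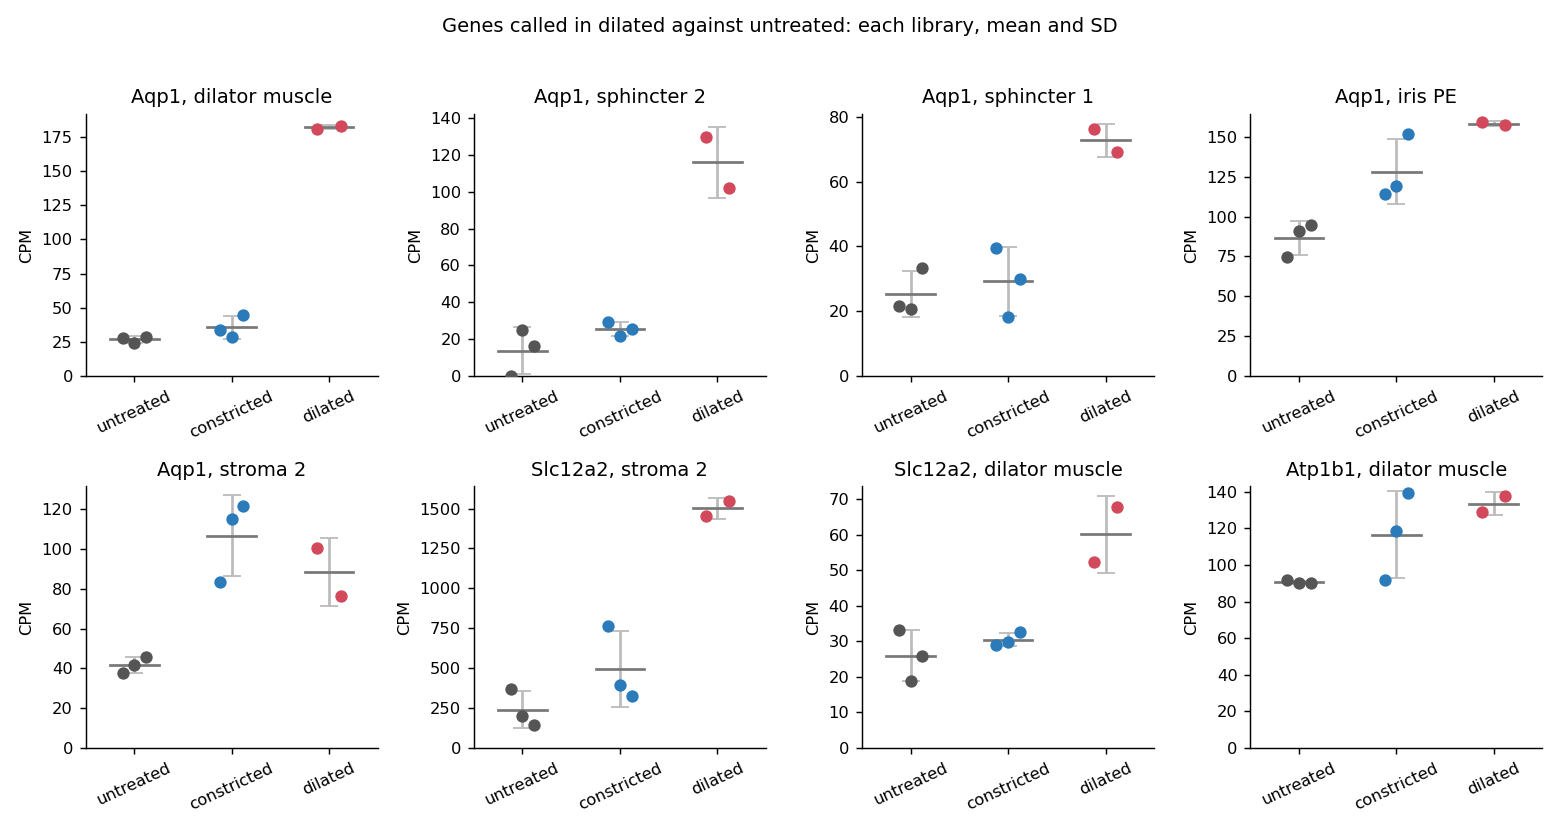
Level in CPM of each called gene in the cell type of the call, with 1 point per library in the 3 untreated, 3 constricted and 2 dilated libraries, the mean as a line and the SD as a bar. Aqp1 in the dilator muscle lies at 181 and 183 CPM in the dilated libraries and at 24.1 to 44.8 CPM in the other 6.

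Of the other water channels, only Aqp9 and Aqp11 passed the filter on low counts in the dilator muscle, and neither was called higher. Aqp4 was not tested in that type, where it held 2 UMIs untreated, 13 constricted and 14 dilated. Aqp9 had a log2 fold change of -0.94 ± 0.30 there (adjusted p = 0.0513, edgeR) and Aqp11 of -0.37 ± 0.23 (adjusted p = 0.316, edgeR). In the iris PE the values were -0.67 ± 0.24 for Aqp9 and 0.29 ± 0.28 for Aqp11, and in stroma 2 Aqp11 had 0.19 ± 0.46, none of them called.

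Slc12a2 rose in stroma 2 and in the dilator muscle on dilation. In stroma 2 it was at 371, 202 and 146 CPM untreated, 765, 393 and 329 CPM constricted, and 1455 and 1548 CPM dilated. The dilated libraries lay above all others, while the constricted and untreated ranges overlapped. The log2 fold change was 2.73 ± 0.36 on dilation (adjusted p = 0.00379, edgeR), 1.65 ± 0.35 against constriction (adjusted p = 0.0675, edgeR, called in 5 of 17 alternatives) and 1.09 ± 0.33 for constriction against untreated (adjusted p = 0.639, edgeR). Within each series of library numbers the ratio of dilated to untreated was 3.92 in the series with the first replicates and 8.89 in the other.

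The share of stroma 2 nuclei with a Slc12a2 UMI was 25.0% (23.4 to 26.5%) untreated, 42.0% (39.6 to 44.4%) constricted and 70.4% (68.4 to 72.4%) dilated. At 1000 UMIs per nucleus these shares were 13.9, 28.0 and 54.9%. In stroma 1, which held as much Slc12a2 before treatment, the gene was at 349 and 392 CPM in the dilated libraries with a log2 fold change of 0.16 ± 0.16, and the response of stroma 2 exceeded that of stroma 1 by 2.73 ± 0.26 (adjusted p = 2.0e-07, edgeR). The stroma 1 markers in stroma 2 summed to 13.1 to 21.8 CPM untreated and 4.66 to 11.0 CPM dilated. A list of smooth muscle genes summed there to 192 to 714 CPM untreated and 782 to 933 CPM dilated, and its part, like that of the endothelial markers, was not tested.

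In the dilator muscle Slc12a2 was lower, at 33.0, 18.7 and 25.9 CPM untreated, 29.0, 29.7 and 32.7 CPM constricted, and 52.3 and 67.7 CPM dilated. Its log2 fold change was 1.46 ± 0.22 against untreated (adjusted p = 0.000826, edgeR) and 1.15 ± 0.21 against constricted (adjusted p = 0.00408, edgeR), the latter lost without dilated replicate 2 (0.87, adjusted p = 0.0542). The response of stroma 2 exceeded that of the dilator muscle by 1.44 ± 0.32 (adjusted p = 0.00908, edgeR). Of its paralogs in the dilator muscle, the potassium chloride cotransporter Slc12a4 rose from 16.4 to 25.3 CPM (log2 fold change 0.83 ± 0.23, adjusted p = 0.0315, edgeR). It stood at 25.6 CPM constricted, with a log2 fold change of 0.18 ± 0.23 for dilation against constriction (adjusted p = 0.684, edgeR), while Slc12a5 and Slc12a7 had values of 0.32 and -0.11 and were not called.

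Atp1b1 was called in the dilator muscle alone. It was at 91.6, 90.1 and 90.0 CPM untreated, 91.8, 119 and 139 CPM constricted, and 129 and 138 CPM dilated. The dilated libraries were above the untreated ones but within the constricted range, with a log2 fold change of 0.75 ± 0.18 against untreated (adjusted p = 0.0160, edgeR). The call was lost without dilated replicate 2, without untreated replicate 2 or 3, and with library totals in place of TMM (0.56). The gene had log2 fold changes of -0.44 ± 0.33 in sphincter 1 and -0.19 ± 0.29 in sphincter 2, and the differences from the dilator muscle were -1.16 ± 0.30 for sphincter 1 and -0.94 ± 0.24 for sphincter 2 (adjusted p = 0.00628 and 0.00816, edgeR). The dilator muscle minus the CBE was -0.65 ± 0.40 and did not pass (adjusted p = 0.498, edgeR).

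The other beta subunits rose with it in the dilator muscle, Atp1b2 from 14.2 to 23.5 CPM (log2 fold change 0.95 ± 0.24, adjusted p = 0.0187, edgeR) and Atp1b3 from 79.3 to 128 CPM (0.87 ± 0.15, adjusted p = 0.00263, edgeR).

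Car2 was called once, in sphincter 1 for dilation against constriction. It was at 29.6, 30.3 and 26.5 CPM constricted and 68.2 and 106 CPM dilated, with the untreated libraries at 48.4, 31.9 and 59.6 CPM between them. The log2 fold change was 1.63 ± 0.39 (adjusted p = 0.0175, edgeR, 3.7% of genes called), and against untreated it was 0.91 ± 0.31 (adjusted p = 0.191, edgeR). The call was lost without constricted replicate 1 or 3, without dilated replicate 2 (1.23 to 1.65) and with DESeq2.

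Slc4a4 and Slc4a2 stayed uncalled in every cell type and contrast. Slc4a2 had log2 fold changes on dilation of -0.22 to 0.34 in the 8 types tested. Slc4a4 had -0.13 ± 0.14 in the dilator muscle, where it was at 624 and 526 CPM dilated beside 685 to 730 CPM untreated.

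Over the whole list of the secretory machinery, 39 of 409 tests were called on dilation, 28 higher and 11 lower, or 9.54% beside 3.34% of all genes, with a median log2 fold change of 0.10 over all its tests. In the dilator muscle 23 of 76 were called (16 higher, 7 lower), 30.3% beside 13.3% of all genes there. The list includes the 7 members with their 8 calls and was chosen with earlier results of these data known. The shares are therefore a description and no independent test of the list. In the CB 0 of 32 and in the CBE 0 of 39 were called, and DESeq2 called 1 in them over the 3 contrasts. At an unadjusted p under 0.05 were 3 and 4, beside 393 of 7522 and 353 of 8166 over all genes. Constriction against no treatment gave 0 of 409 by edgeR and 2 by DESeq2, with 49 at an unadjusted p under 0.05 by edgeR, beside 4468 of 85092 over all genes. Dilation against constriction gave 27 (17 higher, 10 lower).

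Called list genes in the dilator muscle other than those above, which were chosen after their values were seen, included several with roles next to the members. Of the bicarbonate transporters, Slc26a4 rose from 26.2 to 379.6 CPM (log2 fold change 3.95 ± 0.26) and Slc4a7 from 23.4 to 75.3 CPM (1.88 ± 0.18), while Slc4a5 fell from 263 to 109 CPM (-1.09 ± 0.33). Of the carbonic anhydrases, Car9 rose from 5.60 to 10.2 CPM, and Car14 and Car8 fell from 124 to 31.5 CPM and from 15.3 to 3.12 CPM. Of the gap junction genes, Gja1 fell from 934 to 395 CPM and Gjc1 rose from 17.7 to 24.7 CPM (0.66 ± 0.18). The taurine transporter Slc6a6 rose from 68.5 to 207 CPM in the dilator muscle and from 24.7 to 122 CPM in the iris PE, and the glucose transporter Slc2a1 rose from 344 to 825 CPM in the dilator muscle.

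Another scaling moved the dilator values. Over all genes the median log2 fold change in the dilator muscle was 0.02 with TMM and -0.16 with library totals, and the share of all calls that were higher over the 10 types was 55.9% and 37.2%. For the list it was 71.8% and 62.2%. Relative to the shift of the median, each called member of the dilator muscle was higher under both scalings. In the same dilator nuclei the 4 dilator markers summed to 3081 to 3467 CPM untreated and 1797 to 1916 CPM dilated, a shift whose part in the results was not tested.

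The promoter letters of Aqp1 and Atp1b1 are shown because these genes were called higher in the dilator muscle and had a promoter window. Slc12a2, also called higher there, had none. The RefSeq table (GRCm38.p6) held promoter windows of 300 bases for 4 of the 7 members, and the 250 bases before the start site are given 5′ to 3′ on the strand of the gene, with the motifs found in capitals. The RefSeq start of Aqp1 used here lies upstream of the GENCODE gene start given above.
Aqp1, chr6:55336049-55336298, plus strand: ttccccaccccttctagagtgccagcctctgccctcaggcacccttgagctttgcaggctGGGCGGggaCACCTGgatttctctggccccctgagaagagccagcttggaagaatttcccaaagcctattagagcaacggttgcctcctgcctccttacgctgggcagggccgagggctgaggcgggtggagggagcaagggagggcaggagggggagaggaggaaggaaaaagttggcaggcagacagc
Atp1b1, chr1:164458356-164458605, minus strand: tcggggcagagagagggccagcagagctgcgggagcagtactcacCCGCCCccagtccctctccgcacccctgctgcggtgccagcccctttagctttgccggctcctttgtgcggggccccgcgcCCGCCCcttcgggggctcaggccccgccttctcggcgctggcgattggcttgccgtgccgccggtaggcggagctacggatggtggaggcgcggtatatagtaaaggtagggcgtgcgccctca
In Aqp1 the capitals mark a GC box (GGGCGG, at -190) and an E-box (CACCTG, at -181), and in Atp1b1 a pair of GC boxes on the other strand (CCGCCC, at -205 and -124). The GC box was searched on both strands and was held by 35.7% of 32851 promoter windows, and the E-box (CANNTG) by 72.3%. The cyclic AMP element TGACGTCA (1.79% of windows), the AP-1 motif TGANTCA (7.81%) and the letters TATAAA (13.6%) were searched and are not in either window.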

How the data were processed

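Nuclear RNA of 8 libraries was counted by 10x Genomics 3′ chemistry. The authors aligned the reads to the mouse genome mm10 with exons and introns counted (Cell Ranger 3.1.0), filtered nuclei by transcript number and mitochondrial share, and clustered them with Seurat, and the deposited values are raw UMI counts per gene and nucleus with an annotation of cell type and library. The deposited annotation also gives the percent of mitochondrial UMIs that the authors computed for each nucleus. Strand of counting is not given in the sources used here. Replicates were merged by the authors for clustering, and libraries were kept apart here.

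For each library and cell type the counts were added up, and 1 fit per cell type over all 8 libraries was made with edgeR's quasi-likelihood test (edgeR 4.0.16 and limma 3.58.1 in R 4.3.3, TMM scaling, filterByExpr, two-sided, Benjamini-Hochberg). The groups came from the sample titles, and the contrasts were dilated against untreated, constricted against untreated and dilated against constricted. Differences of the dilation effect between cell types were fitted in all 45 pairs of types with a term for each library. Levels and shares were computed in Python 3.11.15 (numpy 2.4.6, pandas 2.3.3, scipy 1.17.1), with exact Clopper-Pearson intervals, and figures with matplotlib 3.10.9. Thinned shares are the expected share after drawing 1000 UMIs from each nucleus with at least that many. Doublets were called with Scrublet (scanpy 1.11.5) in 359 nuclei (1.04%) and were kept. Libraries shared 215 barcodes over 28 pairs, at most 63 in 1 pair (untreated 1 and dilated 1), in 400 nuclei (1.16%), and without them the same tests of the 7 genes were called. The scripts were tested on simulated data.

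The alternatives were DESeq2 1.42.0, RLE size factors, library totals without TMM, no filter on low counts, a replicate block, a term for the series of library numbers, the adjusted p alone, nuclei without doublets or shared barcodes, and each library left out. Named were the 7 members, all genes of the list called in the CB or CBE, in each role the 2 other genes with the largest ratio of the CB or CBE to the highest iris type at 20 CPM or more, paralogs of called members, and the 2 genes most like each member among 11656. Some genes that these rules name are not reported here. The members and lists were chosen with earlier results of these data known. Gene positions are from GENCODE vM21, which matched 22498 gene names.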

Additional observations from a re-analysis of the deposited data

Results flagged for a closer look

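The dilation effect (dilated against untreated, log2 scale) differed between cell types in 23 of 254 tests of a member in a pair of types, at an adjusted p under 0.05 by an interaction term in edgeR, where 2.06% of all tests over the 45 pairs passed. Pairs that share a cell type share its libraries and are not independent.

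For Aqp1 the dilator muscle moved more than 6 other types. Its effect exceeded that of the CBE by 1.75, of the CB by 2.27 and of the iris PE by 2.07, and the differences written the other way round were -1.52 for sphincter 1, -1.68 for stroma 1 and -1.84 for stroma 2 minus the dilator muscle. Sphincter 2 exceeded the iris PE by 1.89, and stroma 2 minus sphincter 2 was -1.70. Aqp1 did not pass the filter on low counts in the CB or stroma 1 fitted alone.

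For Slc12a2 the effect in stroma 2 exceeded that in the CBE by 2.5, in the iris PE by 2.21, in the dilator muscle by 1.44, in sphincter 1 by 2.32, in sphincter 2 by 1.97 and in stroma 1 by 2.73, and leukocytes minus stroma 2 was -2.71. The dilator muscle exceeded the iris PE by 0.701, and stroma 1 minus the dilator muscle was -1.36.

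For Atp1b1 the difference from the dilator muscle was -1.16 in sphincter 1 and -0.94 in sphincter 2, and stroma 2 minus sphincter 1 was 1.63. For Slc4a4 endothelial cells had a lower effect than the CBE (-2.90), sphincter 1 (-2.5) and stroma 2 (-2.49). These last values rest on 63 Slc4a4 UMIs in endothelial nuclei, 52 of them in the untreated libraries, with 0 in constricted replicate 2 and dilated replicate 2.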

How the results depend on the processing

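The standard errors of the members' log2 fold changes on dilation were 0.22 to 0.37 in the CB and 0.30 to 0.54 in the CBE, against 0.14 to 0.34 in the dilator muscle, and leaving out a dilated library assumes that the lone one varies like the other groups. The 8 member calls for dilation against untreated were 4 to 8 with a library left out (4 without untreated replicate 2 or 3, 5 without dilated replicate 1). Aqp1 in the dilator muscle and sphincter 2 and Slc12a2 in the dilator muscle and stroma 2 kept their calls against untreated under every alternative that gave an adjusted p. DESeq2 gave none for Aqp1 in sphincter 1 or in sphincter 2 (3 tests) and called 6 of the 8. The 0 calls for constriction against untreated became 1 with DESeq2, library totals, the replicate block or the series term, 2 with no filter on low counts, and 0 to 1 with a library left out. Aqp1 in stroma 2 was the gene, called in 8 of its alternatives (adjusted p 9.8e-07 to 0.523), and Slc12a2 in stroma 2 was the second with no filter. Slc12a2 in stroma 2 for dilation against constriction was not called, but was with the replicate block, the series term, no filter, and without untreated replicate 1 or constricted replicate 1 (log2 fold change 1.43 to 2.08 and adjusted p 2.5e-15 to 0.319 over its alternatives). The 4 calls for dilation against constriction became 2 with DESeq2 and 2 to 6 with a library left out.

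For the list of 110 genes, the 39 calls on dilation were 19 to 45 with a library left out (19 without untreated replicate 2, 20 without untreated replicate 3, 22 without dilated replicate 2, 25 without dilated replicate 1). The 0 on constriction became 2 with DESeq2, 5 with no filter, 1 with library totals, the block or the series term, and 0 to 2 with a library left out. The 27 against constriction became 41 with no filter and 18 to 30 with a library left out. The 0 in the CB and CBE became 1 with DESeq2 or without doublets, 4 with no filter, 2 with the block or the series term, and 0 to 2 with a library left out (Slc23a2, Slc6a6 and Slc26a4). The 23 differences between cell types were 11 to 23 with a library left out (11 without untreated replicate 3, 15 without untreated replicate 2 or dilated replicate 2). The number of members higher in the CB or CBE than in every iris type was 2, and 2 to 3 with a library left out.

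The share of CB nuclei with a Slc4a4 UMI was 98.1% at 1000 and 91.2% at 500 UMIs per nucleus, and that of CBE nuclei with Aqp4 3.97% and 2.01%. The log2 ratio of Aqp4 in the CB to the highest iris type, -0.06 on 3 UMIs, ran from -0.0597 to 1.30 with an untreated library left out and was 0.0174 over all 8 libraries, 0.297 with TMM-scaled CPM and 0.758 without leukocytes and endothelial cells. That of Car2 in the CB, -0.05, ran from -0.149 to 0.0118 (0.0023 without untreated replicate 1) and was 0.0526 without shared barcodes, and the cause was not tested. With the replicate block, all 8 member calls on dilation were kept and the list had 49 calls. The replicate numbers were not taken to pair the libraries. Of the same-numbered pairs, 5 of 7 correlated over 0.1 (-0.0123 to 0.602 in the dilator muscle, other pairs -0.602 to 0.566). These correlations cannot decide the pairing, because the deviations of the 2 dilated libraries from their mean mirror each other, which fixes part of both ranges. Over all genes the calls on dilation were 2840, and 2731 with DESeq2, 4011 with no filter, 3681 with the block and 4163 with the series term. Library totals and the nuclei without shared barcodes were alternatives chosen after seeing the data.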

Other observations

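By edgeR no member was called on constriction, while DESeq2 called Aqp1 in stroma 2. The Aqp1 log2 fold change against untreated was 0.56 ± 0.16 in the iris PE (86.6 to 128 CPM, adjusted p = 0.845, edgeR), 1.13 ± 0.40 in endothelial cells (270.4 to 563 CPM, adjusted p = 0.254, edgeR) and 0.44 ± 0.18 in the dilator muscle (adjusted p = 1.00, edgeR). Slc4a4 in sphincter 1 had -0.53 ± 0.24 on constriction (140 to 88.3 CPM, adjusted p = 0.750, edgeR) and 0.91 ± 0.26 for dilation against constriction (adjusted p = 0.0574, edgeR).

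Summed over all nuclei of a library, whatever their type, Aqp1 stood at 38.9, 45.5 and 49.8 CPM untreated, 62.0, 57.4 and 83.4 CPM constricted, and 142 and 139 CPM dilated. Slc12a2 stood at 117, 73.4 and 72.0 CPM untreated, 157, 107 and 92.0 CPM constricted, and 261 and 289 CPM dilated. Slc4a4 followed no such order, with 369 to 694 CPM untreated, 403 to 870 CPM constricted and 400 and 712 CPM dilated, and the 3 libraries with the largest share of CB nuclei had the 3 highest values.

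Genes of the list called on dilation outside the dilator muscle, chosen after their values were seen, included the alpha-2A adrenergic receptor Adra2a in stroma 2 (25.6 to 111 CPM, log2 fold change 2.16 ± 0.29) and the amino acid transporter Slc7a5 in stroma 2 (22.0 to 153 CPM, 3.08 ± 0.65). The potassium channel gene Kcnma1 had opposite signs in the sphincter types, falling from 1091 to 426 CPM in sphincter 1 (-1.29 ± 0.30) and rising from 90.7 to 278 CPM in sphincter 2 (1.66 ± 0.25), and the difference between the types was not tested for it.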
